A study of Rattus norvegicus with 12 samples.

Results

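The genes described here are 40 genes of mitosis and the spindle, chosen by name for their roles in driving cells into mitosis, building the spindle, attaching and separating chromosomes and dividing the cell. Probes outside the control spots whose deposited accession maps to a rat symbol were searched for these names, and the brightest probe over the 12 arrays stood for a gene. This found 32 of the 40 genes, among 15645 named genes on the array. No probe was found by this rule for Cdc25c, Bub1b, Kif4a, Cenpe, Ncapg, Ncapd2, Top2a and Anln, so these 8 have no values here. The 32 genes had 61 probes, and 16 of them had more than 1.

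Total RNA of the renal cortex was taken from male Sprague-Dawley rats, purchased at an age of 5 weeks, and 1 array was hybridised per animal. Cisplatin, a platinum compound used against tumours, binds and cross-links DNA and can injure the renal tubule. It was compared with water over 4 weeks in each of 2 experiments. The 4 groups, each of 3 animals that the labels call biological replicates, were gavage water, gavage cisplatin at 3.75 mg/kg/day, intravenous water and intravenous cisplatin at 0.75 mg/kg/day. The intravenous dose is that of each sample's own label, while the protocol text common to the 12 samples gives 3.75 mg/kg/day. Route, dose and experiment changed together, and the 3 intravenous cisplatin arrays were the only ones on their slide, so these cannot be told apart. Cortex is a mixture of cell types and was not sorted, and in bulk tissue fewer cells of a type and less RNA per cell cannot be told apart.

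Entry into mitosis is driven by the kinase CDK1 bound to cyclin A or cyclin B. Microtubules are then built into a bipolar spindle by kinesin motors and bundling proteins, kinetochores attach each chromosome to it, and a checkpoint holds back separase until every chromosome is attached. Most cells of the adult renal tubule are quiescent, and tubule cells can re-enter the cell cycle after injury. Genes of mitosis are transcribed late in the cell cycle under the MuvB complexes with B-Myb and FOXM1, which act at a promoter element called the cell cycle genes homology region, often with a neighbouring box bound by the factor NF-Y.

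Promoter stretches are shown for 4 genes that rose with cisplatin (Cdk1, Ccnb1, Plk1 and Kif20a) and 3 that rose in neither experiment or by little (Cdc25b, Cdc20 and Smc4). They are examples picked by hand, without a rule, so they do not show how the elements go with the change. Over all 36 promoter windows of the genes, described below, 28 hold the homology core. Of the motif matches marked, the stretches of Cdk1, Cdc25b, Cdc20 and Smc4 hold both kinds, and those of Ccnb1, Plk1 and Kif20a the NF-Y box core alone. For Plk1 a match to the homology core lies 7 bases past its start site, outside the stretch, and Ccnb1 and Kif20a have no match in their windows. Each runs 5′ to 3′ on the strand of the gene, from 150 bases before the start site in RefSeq's GRCr8 annotation to that site or, where the annotated gene reaches farther upstream, to the last base before it. Capitals mark TTTGAA or TTCGAA, the core of the cell cycle genes homology region, and CCAAT, the core of the NF-Y box, on either strand, where they read TTCAAA and ATTGG when reversed. No other spelling of either element was searched for, so a stretch without a match can still hold the element.
Cdk1 (chr20:19265143-19265251, plus strand): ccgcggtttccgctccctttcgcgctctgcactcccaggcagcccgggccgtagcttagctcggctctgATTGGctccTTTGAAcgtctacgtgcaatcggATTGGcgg
Ccnb1 (chr2:33655226-33655375, minus strand): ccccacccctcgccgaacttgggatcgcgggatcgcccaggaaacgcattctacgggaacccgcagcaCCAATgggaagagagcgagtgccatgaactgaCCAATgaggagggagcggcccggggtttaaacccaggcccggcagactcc
Plk1 (chr1:186147508-186147657, plus strand): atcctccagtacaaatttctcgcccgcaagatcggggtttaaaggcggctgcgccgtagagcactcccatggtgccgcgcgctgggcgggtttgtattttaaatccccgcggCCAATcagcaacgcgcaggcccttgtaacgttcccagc
Kif20a (chr18:26504272-26504421, plus strand): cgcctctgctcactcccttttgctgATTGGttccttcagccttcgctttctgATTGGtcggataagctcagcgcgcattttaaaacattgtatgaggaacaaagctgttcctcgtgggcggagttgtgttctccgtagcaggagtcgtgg
Cdc25b (chr3:138860023-138860147, plus strand): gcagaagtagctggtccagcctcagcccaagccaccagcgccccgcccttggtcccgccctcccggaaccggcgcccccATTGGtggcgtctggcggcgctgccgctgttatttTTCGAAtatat
Cdc20 (chr5:137255800-137255949, minus strand): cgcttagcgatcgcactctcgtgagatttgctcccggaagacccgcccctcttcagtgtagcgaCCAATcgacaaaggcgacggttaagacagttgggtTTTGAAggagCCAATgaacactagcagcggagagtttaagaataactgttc
Smc4 (chr2:155550112-155550261, plus strand): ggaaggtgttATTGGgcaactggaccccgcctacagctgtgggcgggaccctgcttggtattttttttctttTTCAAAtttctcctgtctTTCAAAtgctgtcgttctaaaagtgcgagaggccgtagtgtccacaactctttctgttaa

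The promoter table holds 36 windows of 35 of the 40 genes, each from 250 bases before the start site to 50 after it, and Kif2c has 2 of them. Ccna2, Aurkb, Foxm1, Tpx2 and Racgap1 have no window in it. TTTGAA or TTCGAA stood on either strand in 28 of the 36 windows (77.8%), against 19.7% of the 33469 windows of the whole table. Within 50 bases of the start site the shares were 52.8% and 5.65%. CCAAT stood in 27 of these 36 windows and in 37.5% of the table's, and both motifs in 63.9% and 7.95%. In 1 window, that of Mki67, a match of one motif overlaps a match of the other. Aurka, Bub1 and Kif2c, which rose with cisplatin, had neither motif. Cdc25b, Cdc20, Smc2 and Smc4 had both, as did many genes that rose, such as Cdk1 and Mki67. Whether the motifs go with the change was not tested. Start sites can lie inside the annotated gene, for example by 41951 bases for Kif11 and 35359 for Nuf2. The same holds for Smc2 (9977 bases), Birc5 (4777), 1 window of Kif2c (3714), Aurka (2121), Ttk (1961) and Kif23 (1327). Some windows are therefore those of an internal start. A match is a description of letters and not a site in use.

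**Figure D1:**
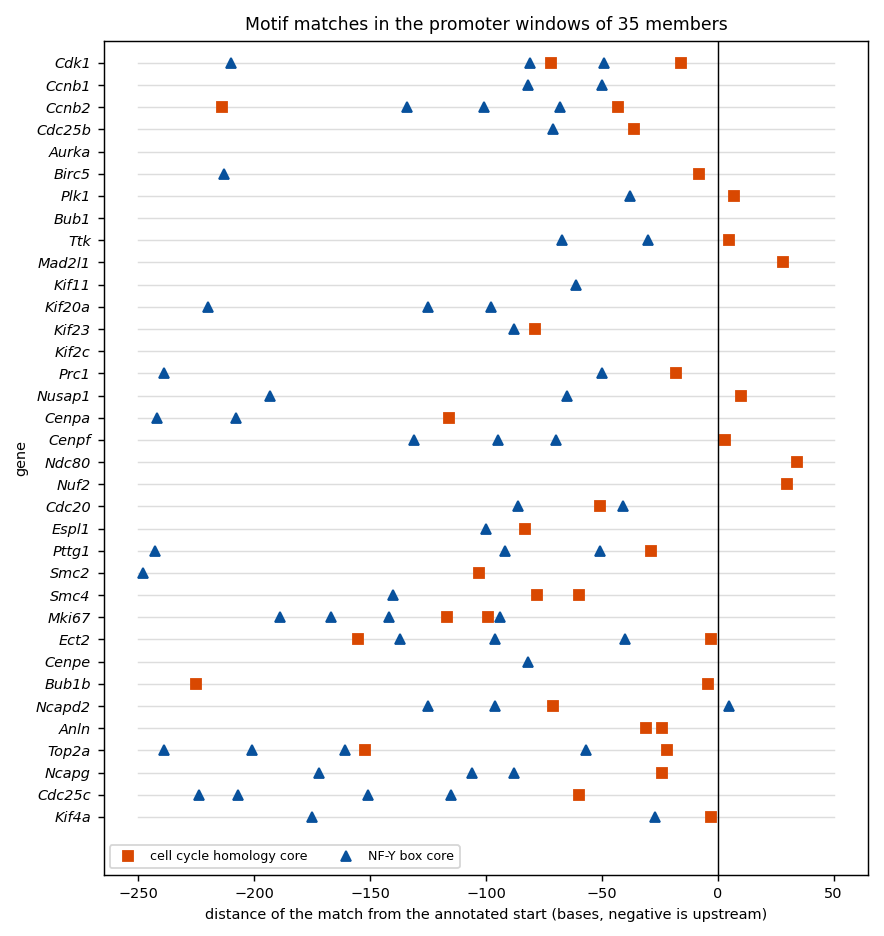
Motif matches in the promoter windows of 35 of the genes, by distance in bases from the annotated start site (negative is upstream). Orange squares are the homology region core and blue triangles the NF-Y box core, and many squares sit close to the start site, while Aurka, Bub1 and Kif2c have no symbol.

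The array files hold spot intensities, and a level is the log2 intensity of a probe minus the 75th percentile of its array, so 0 is that percentile and each step of 1 is a doubling. The percentile itself was 969.7 to 1054.8 intensity units on the water arrays and 1387.4 to 1532.2 on the cisplatin arrays, and 66.1% to 73.9% of probes were well above background. Arrays of a group correlated at 0.981 to 0.993 over all features. Levels of different probes are not compared, because probes differ in brightness. Summed levels of markers add values on the linear scale, so they follow the brightest probes and are compared only between arrays. To check the cortex label, defining markers were read: the 7 proximal tubule markers were above background in all groups, with a summed level (1 is the 75th percentile) of 947 to 1209 with water, 64.9 to 138 with gavage cisplatin and 111 to 378 with intravenous cisplatin. The number of arrays limits the precision.

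With gavage cisplatin, 27 of the 32 genes rose, 1 fell (Kif11) and 4 did not pass (Cdc25b, Cdc20, Smc2 and Smc4). A gene passed at a limma adjusted p under 0.05, taken over all 34444 features tested, of which 59.3% passed in this comparison (29.5% higher and 29.8% lower). With intravenous cisplatin 28 rose, none fell and 4 did not pass (Cdc25b, Kif11, Cdc20 and Smc2), against 58.4% of all features (26.4% higher and 32% lower). The median change of the 32 genes was 1.77 on the log2 scale with gavage and 1.85 with intravenous cisplatin, while that of all features was 0.0068 and -0.0626. The same 27 genes rose in both experiments, by fitted folds of 1.98 to 7.83 with gavage and 1.91 to 8.06 with intravenous cisplatin. Aurkb, Cenpa and Smc2 were tested only because they were bright enough in a cisplatin group. With the test limited to probes well above background on all 12 arrays, 29 of the genes remained, of which 25 rose with gavage and 26 with intravenous cisplatin.

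All 3 gavage cisplatin arrays lay above all 3 gavage water arrays in 28 genes and below them in 2 (Kif11 and Cdc25b). Over all features those shares were 33.3% and 33.7%. In the intravenous experiment 27 genes had all cisplatin arrays above all water arrays, against 29.7% of features, and none had them all below, against 36.3%. The levels of Cdc25b, Kif11, Cdc20, Smc2 and Smc4 overlapped there.

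**Figure D2:**
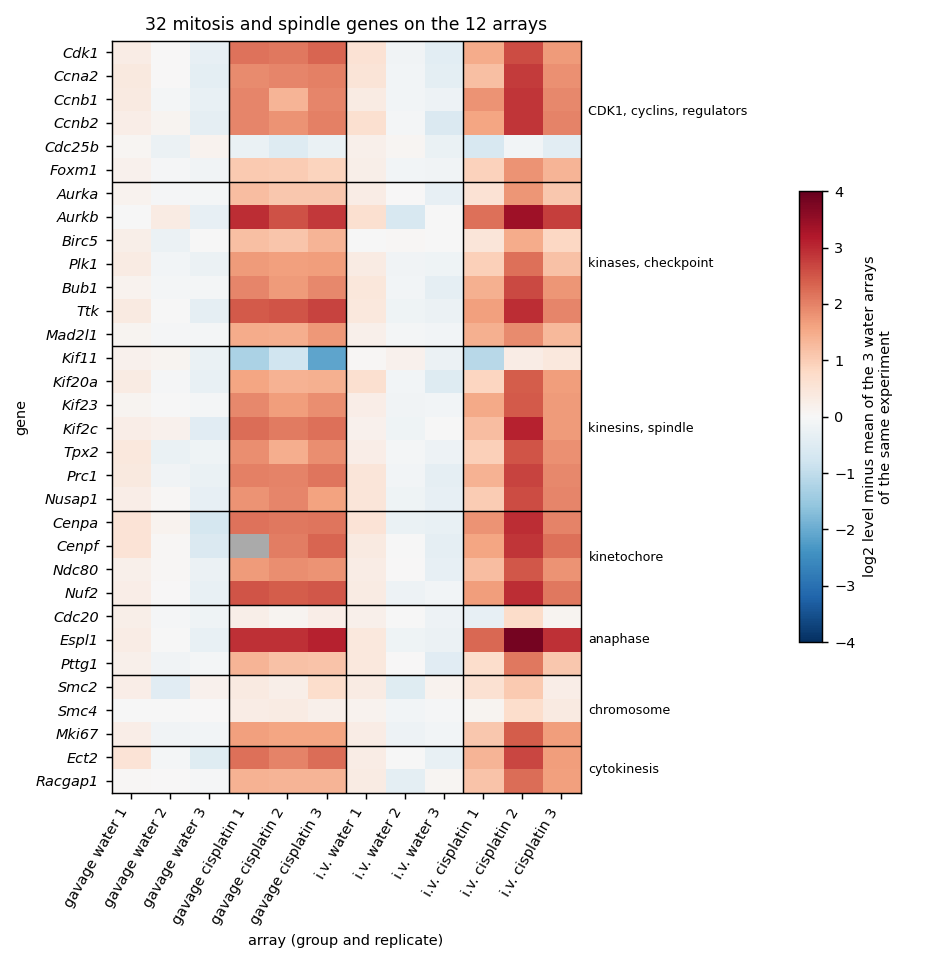
Level of the 32 genes (rows, by role) on the 12 arrays (columns), as the log2 level minus the mean of the 3 water arrays of the same experiment, red above and blue below. The cisplatin columns are red in most rows, intravenous cisplatin replicate 2 is the darkest, Kif11 is blue with gavage cisplatin, and the grey cell is a Cenpf spot left out as uneven.

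Among the kinase CDK1, its cyclins and their regulators, 5 of 6 genes rose in both experiments. Cdk1, the kinase that starts mitosis, had levels of 0.83, 0.53 and 0.21 with gavage water and 2.70, 2.64 and 2.87 with gavage cisplatin. In the intravenous experiment its levels were 1.33, 0.60 and 0.31 with water and 2.24, 3.35 and 2.45 with cisplatin. No cisplatin array of either experiment came as low as its highest water array. The rise was 2.21 ± 0.32 (4.62-fold, log2 difference ± SE of the limma fit, 3 arrays per group, limma adjusted p = 0.000203) with gavage and 1.94 ± 0.32 (3.82-fold, limma adjusted p = 0.000581) with intravenous cisplatin. Here and below, that SE rests on 1 spread per gene shared by the 4 groups, not on the arrays of 1 experiment alone.

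Ccnb1 encodes cyclin B1, the partner of CDK1 that is destroyed at anaphase. It stood at -2.12, -2.56 and -2.78 with gavage water and -0.52, -1.11 and -0.54 with gavage cisplatin, and at -2.47, -2.88 and -3.01 with intravenous water and -0.9959, 0.09 and -0.86 with intravenous cisplatin. Water and cisplatin did not overlap, with intravenous cisplatin replicate 2 highest and gavage cisplatin replicate 2 lowest of its group. It rose by 1.76 ± 0.30 (3.39-fold, limma adjusted p = 0.000591) and 2.20 ± 0.30 (4.58-fold, limma adjusted p = 0.000191). Ccna2 (cyclin A2) rose by 1.95 ± 0.37 and 1.94 ± 0.37, and Ccnb2 (cyclin B2) by 1.93 ± 0.35 and 2.15 ± 0.35. The other 3 probes of Ccna2 rose as well, by 2.13 to 2.28 and 2.14 to 2.63.

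Foxm1, a transcription factor of the late cell cycle genes, gave -1.26, -1.45 and -1.55 with gavage water against -0.37, -0.40 and -0.52 with gavage cisplatin. Intravenous water gave -1.44, -1.78 and -1.82 and intravenous cisplatin -0.77, 0.11 and -0.33. Its arrays did not overlap, and the rises of 0.99 ± 0.20 (1.98-fold, limma adjusted p = 0.00161) and 1.35 ± 0.20 (2.55-fold, limma adjusted p = 0.000282) were among the smaller ones. Cdc25b, a phosphatase that activates CDK1, differed by -0.34 ± 0.17 (limma adjusted p = 0.108) and -0.39 ± 0.17 (limma adjusted p = 0.0738) and did not pass. Of its other 2 probes, 1 passed as lower in both experiments (-0.52 and -0.38). The first probe passed as lower with gavage under normexp background correction (-0.38, limma adjusted p = 0.0355). With spike-in scaling its sign turned (0.32 and 0.17), and without intravenous water replicate 3 or intravenous cisplatin replicate 2 its intravenous change passed as lower (-0.51 and -0.53).

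Each of the 7 measured mitotic kinases, passenger proteins and checkpoint genes rose in both experiments. Aurkb, the kinase of the chromosomal passenger complex, was not well above background on any gavage water array (-5.80, -5.46 and -6.10) and was on all gavage cisplatin arrays (-2.82, -3.24 and -2.95). On the intravenous arrays its levels were -4.86, -6.13 and -5.51 with water, where 1 of 3 arrays was well above background, and -3.28, -2.12 and -2.73 with cisplatin. No water array reached a cisplatin array. The gavage rise was at least 6.23-fold (limma adjusted p = 8.25e-05), from the cisplatin mean to the lowest signal well above background or the probe's own signal, whichever was higher on each water array. The intravenous difference was 2.79 ± 0.35 (limma adjusted p = 0.000116), whose size is uncertain because 2 of its 3 water values lay below background calls. With normexp background correction Aurkb rose by 0.99 and 1.101, so the bound holds only for the processed signals as deposited.

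Mad2l1, which encodes the MAD2 protein that holds CDC20 inactive until chromosomes are attached, had the smallest p of the 32 genes in both experiments. Its levels were -1.88, -2.04 and -2.06 with gavage water and -0.52, -0.53 and -0.26 with gavage cisplatin. With intravenous water they were -1.84, -2.11 and -2.14 and with intravenous cisplatin -0.61, -0.13 and -0.74. The groups were far apart for the spread within them, so that changes of 1.55 ± 0.16 (2.94-fold, limma adjusted p = 2.36e-05) and 1.54 ± 0.16 (2.9-fold, limma adjusted p = 4.07e-05) passed although larger changes were seen elsewhere. Ttk (the checkpoint kinase MPS1) rose by 2.55 ± 0.32 and 2.18 ± 0.32, and Bub1, another checkpoint kinase, by 1.86 ± 0.29 and 1.95 ± 0.29. Plk1 (polo-like kinase 1) rose by 1.67 ± 0.29 and 1.45 ± 0.29. The smallest rises of the group were those of Aurka, the kinase of spindle poles (1.13 ± 0.26 and 1.15 ± 0.26), and Birc5, which encodes survivin of the passenger complex (1.22 ± 0.22 and 0.93 ± 0.22).

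Among the 7 measured kinesins and spindle proteins, 6 rose in both experiments. Kif23, the kinesin of the central spindle, stood at -2.19, -2.32 and -2.36 with gavage water and -0.38, -0.60 and -0.44 with gavage cisplatin. Intravenous water gave -2.02, -2.42 and -2.39 and intravenous cisplatin -0.76, 0.17 and -0.59. Each cisplatin array exceeded every water array, and the changes were 1.82 ± 0.21 (3.52-fold, limma adjusted p = 5.54e-05) and 1.88 ± 0.21 (3.69-fold, limma adjusted p = 6.55e-05).

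Prc1, which cross-links antiparallel microtubules at the spindle midzone, gave -1.43, -1.96 and -2.10 with gavage water against 0.20, 0.14 and 0.33 with gavage cisplatin. The intravenous arrays gave -1.21, -1.79 and -2.04 with water and -0.29, 1.01 and 0.24 with cisplatin. Again the arrays did not overlap, and Prc1 rose by 2.05 ± 0.32 (4.15-fold, limma adjusted p = 0.000337) and 2.01 ± 0.32 (4.02-fold, limma adjusted p = 0.000487). Kif2c, a kinesin that takes microtubules apart, rose by 2.17 ± 0.39 and 2.00 ± 0.39. Kif20a, a kinesin of the midzone, rose by 1.46 ± 0.38 and 1.65 ± 0.38. The Aurora A activator Tpx2 rose by 1.73 ± 0.34 and 1.75 ± 0.34, and Nusap1, which stabilises spindle microtubules, by 1.78 ± 0.36 and 1.87 ± 0.36.

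Kif11, the kinesin that pushes the spindle poles apart, was the only one of the 32 genes to fall. Its brightest probe stood at 2.59, 2.56 and 2.16 with gavage water and 1.19, 1.63 and 0.34 with gavage cisplatin, and all 3 cisplatin arrays lay below the water arrays. On the intravenous arrays it stood at 2.12, 2.26 and 1.84 with water and 0.96, 2.39 and 2.50 with cisplatin, where replicate 1 was low and replicates 2 and 3 lay above all 3 water arrays. The change was -1.39 ± 0.42 (0.383-fold, limma adjusted p = 0.0153) with gavage and -0.13 ± 0.42 (limma adjusted p = 0.807) with intravenous cisplatin. A second bright probe of Kif11 also had every gavage cisplatin array below the water arrays, -0.13, -0.13 and -0.56 with water and -1.62, -1.25 and -2.50 with cisplatin, a change of -1.52 ± 0.44 (limma adjusted p = 0.0134). Its intravenous levels were -0.68, -0.44 and -0.88 with water and -1.71, -0.18 and 0.11 with cisplatin (0.07 ± 0.44). The dimmest probe, which was well above background on 1 of 3 gavage water arrays and no intravenous water array, differed by 0.16 ± 0.34 and 0.70 ± 0.34 and did not pass. The fall of the brightest probe did not pass without gavage cisplatin replicate 3 (-1.03, limma adjusted p = 0.0607), with the slide as a fixed block, where 1 gavage cisplatin array carries the contrast (-1.25, limma adjusted p = 0.127), or with spike-in scaling (-0.73, limma adjusted p = 0.161). It passed with the slide as a random block (-1.39).

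**Figure D3:**
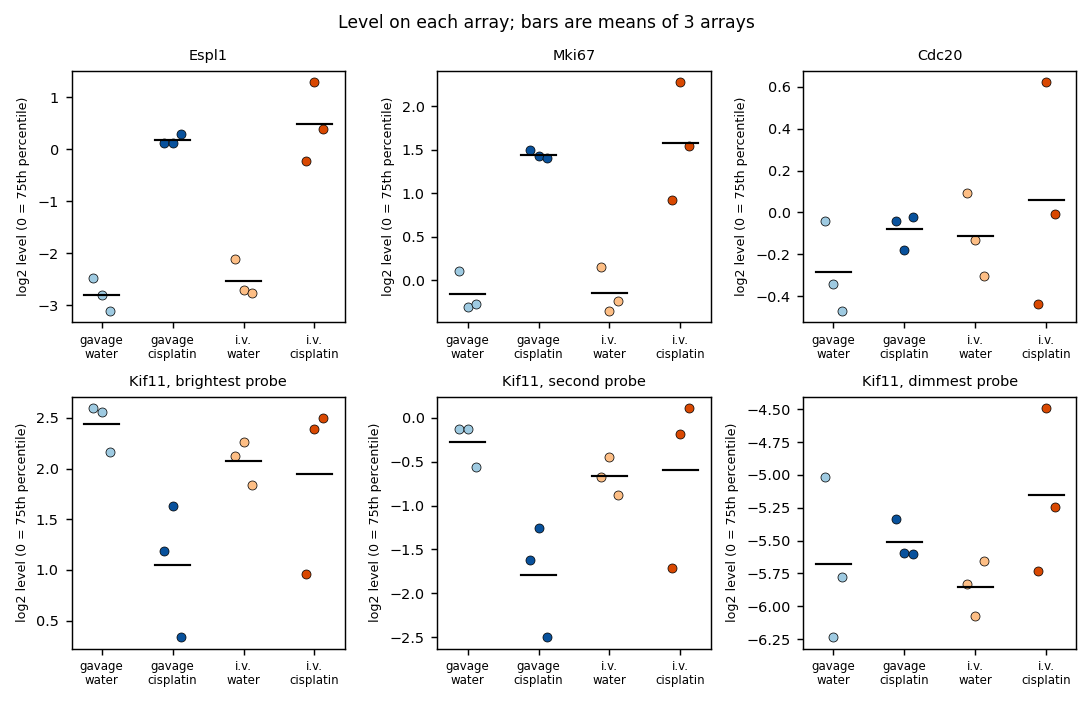
Log2 level (0 is the 75th percentile of the array) on each of the 12 arrays for Espl1, Mki67, Cdc20 and the 3 probes of Kif11, with bars at the mean of 3 arrays. Espl1 and Mki67 are higher with cisplatin without overlap, Cdc20 overlaps, and both brighter Kif11 probes are lower on all 3 gavage cisplatin arrays and on intravenous cisplatin replicate 1.

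The 4 measured kinetochore genes rose in both experiments. Nuf2 and Ndc80 encode partners in the complex that grips the microtubule end. Nuf2 levels were -3.24, -3.50 and -3.80 with gavage water and -0.99, -1.08 and -1.01 with gavage cisplatin, and -2.96, -3.51 and -3.41 with intravenous water and -1.62, -0.33 and -1.18 with intravenous cisplatin. Those of Ndc80 were -2.37, -2.54 and -2.83 and -0.87, -0.71 and -0.80 with gavage, and -2.28, -2.53 and -2.87 and -1.34, -0.08 and -0.77 in the intravenous experiment, water first. For both genes the water and cisplatin arrays were separate, and the gavage cisplatin arrays lay within a narrow band. Nuf2 rose by 2.48 ± 0.29 (5.59-fold, limma adjusted p = 4.93e-05) and 2.25 ± 0.29 (4.76-fold, limma adjusted p = 0.000129), and Ndc80 by 1.79 ± 0.28 (3.46-fold, limma adjusted p = 0.000312) and 1.83 ± 0.28 (3.56-fold, limma adjusted p = 0.000344). Cenpa, the histone variant that marks centromeres, differed by 2.15 ± 0.37 and 2.24 ± 0.37 and passed as higher. Only 2 of 3 gavage water arrays and 1 of 3 intravenous water arrays had it well above background, so its water level and the size of its rise are uncertain. Cenpf, a large protein of the outer kinetochore, rose by 2.19 ± 0.41 and 2.22 ± 0.36, the first from only 2 cisplatin arrays because the spot of gavage cisplatin replicate 1 was uneven.

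Of the 3 anaphase genes, 2 rose. Espl1, which encodes separase, the protease that cuts cohesin, had the largest fitted difference of the 32 genes in both experiments, although that of Aurkb has no upper limit with gavage. It stood at -2.48, -2.79 and -3.10 with gavage water and 0.12, 0.12 and 0.29 with gavage cisplatin, and at -2.11, -2.70 and -2.76 with intravenous water and -0.22, 1.29 and 0.39 with intravenous cisplatin. The lowest cisplatin array was well clear of the highest water array, at 2.97 ± 0.33 (7.83-fold, limma adjusted p = 4.08e-05) and 3.01 ± 0.33 (8.06-fold, limma adjusted p = 5.73e-05). Its second probe rose by 2.48 and 2.67.

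Pttg1 encodes securin, the inhibitor of separase. It gave 0.55, 0.23 and 0.29 with gavage water, 1.72, 1.54 and 1.49 with gavage cisplatin, 0.98, 0.57 and 0.08 with intravenous water and 1.26, 2.65 and 1.63 with intravenous cisplatin. Water and cisplatin were separate in each experiment, by a smaller gap than for Espl1. The rise was 1.23 ± 0.32 (2.34-fold, limma adjusted p = 0.0078) and 1.30 ± 0.32 (2.47-fold, limma adjusted p = 0.00615). Cdc20, which activates the anaphase-promoting complex and is the target of the checkpoint, had levels of -0.04, -0.34 and -0.47 and -0.04, -0.18 and -0.02 with gavage water and cisplatin. Its intravenous levels were 0.09, -0.13 and -0.31 with water and -0.44, 0.62 and -0.01 with cisplatin, and the groups overlapped in both experiments. The change was 0.20 ± 0.23 (95% interval -0.31 to 0.72) and 0.17 ± 0.23 (-0.34 to 0.69) and did not pass, although with spike-in scaling it passed as higher in both (0.86 and 0.73). Without intravenous cisplatin replicate 2 the intravenous value was -0.11.

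Among the chromosome genes, Mki67, which encodes the proliferation antigen Ki-67 that coats mitotic chromosomes, stood at 0.11, -0.31 and -0.27 with gavage water and 1.49, 1.43 and 1.41 with gavage cisplatin. In the intravenous experiment it stood at 0.16, -0.35 and -0.24 and 0.92, 2.28 and 1.54. No arrays overlapped between water and cisplatin. Mki67 rose by 1.60 ± 0.29 (3.03-fold, limma adjusted p = 0.000791) and 1.72 ± 0.29 (3.3-fold, limma adjusted p = 0.000608), and its other 4 probes by 1.73 to 1.99 and 1.62 to 1.88.

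Smc4 and Smc2 encode the ATPase pair of condensin, the complex that compacts chromosomes. Smc4 gave -1.30, -1.30 and -1.27 with gavage water, -0.98, -0.97 and -1.09 with gavage cisplatin, -1.14, -1.37 and -1.32 with intravenous water and -1.18, -0.58 and -0.92 with intravenous cisplatin. The gavage groups were separate and the intravenous groups overlapped, and the steps were small. Its change was 0.28 ± 0.14 (limma adjusted p = 0.104) with gavage, which did not pass, and 0.39 ± 0.14 (1.31-fold, limma adjusted p = 0.032) with intravenous cisplatin. The intravenous call was lost in 9 of 23 other settings, among them without intravenous cisplatin replicate 2 (0.23), without replicate 3 (0.40), without intravenous water replicate 2 (0.34) or 3 (0.37) and when replicate numbers entered as a block (limma adjusted p = 0.0507), while the gavage change passed in 4 of 24. Smc2, well above background on 2 of 3 gavage water and 1 of 3 intravenous water arrays, differed by 0.43 ± 0.28 and 0.64 ± 0.28 and did not pass, and with normexp background correction its sign turned (-0.18 and -0.02). It passed as higher with spike-in scaling in both (1.09 and 1.195), for the mean of its probes with gavage (0.83) and with quantile normalization in the intravenous experiment (0.66). Its second probe rose with gavage (1.22) and did not pass with intravenous cisplatin (0.50).

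The cytokinesis genes Ect2 and Racgap1 both rose. Ect2, the exchange factor that switches on RhoA at the cleavage furrow, gave -1.11, -1.72 and -2.12 with gavage water and 0.55, 0.34 and 0.59 with gavage cisplatin, and -1.26, -1.57 and -1.85 and -0.21, 1.12 and 0.12 with intravenous water and cisplatin. Racgap1, the partner of Kif23 in centralspindlin, gave -2.14, -2.16 and -2.21 and -0.77, -0.80 and -0.80, and -1.95, -2.65 and -2.18 and -1.13, -0.02 and -0.61, in the same order. Every cisplatin array of both genes lay above the water arrays of its experiment. Ect2 rose by 2.14 ± 0.34 (4.4-fold, limma adjusted p = 0.000387) and 1.90 ± 0.34 (3.74-fold, limma adjusted p = 0.000965), and Racgap1 by 1.38 ± 0.25 (2.61-fold, limma adjusted p = 0.000832) and 1.67 ± 0.25 (3.18-fold, limma adjusted p = 0.00032).

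**Figure D4:**
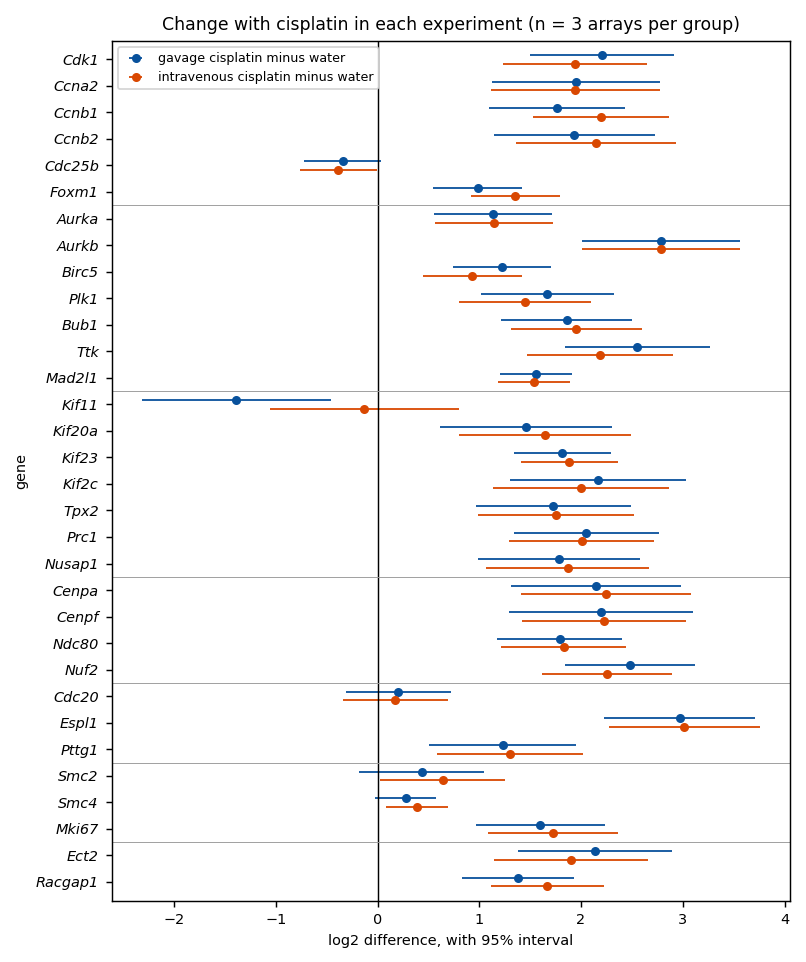
Log2 difference of cisplatin minus water for each of the 32 genes with its 95% interval (n = 3 arrays per group), gavage in blue and intravenous in orange. Most intervals lie right of 0 and the experiments overlap for each gene, with Kif11 left of 0 with gavage.

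The cisplatin effect was compared between the experiments by the difference of effects, intravenous minus gavage. None of the 32 genes passed (lowest limma adjusted p = 0.272, for Kif11), and none had an unadjusted limma p under 0.05, while 1.2% of all features passed (0.168% higher and 1.03% lower with intravenous cisplatin). That share is unstable: of 34444 features 413 passed, none did in 11 of 22 other settings, and 2572 did without gavage cisplatin replicate 1 and 2283 without intravenous cisplatin replicate 1. The differences ran from -0.37 (Ttk) to 1.26 (Kif11), and the second highest was 0.44 (Ccnb1). Their intervals were wide, for example -1.01 to 1.09 for Espl1, -0.52 to 0.49 for Mad2l1 and -0.05 to 2.56 for Kif11, so differences inside them cannot be seen with 3 arrays per group. Without intravenous cisplatin replicate 1, the Kif11 difference was 1.75 (limma adjusted p = 0.0472). Between the water groups none passed (lowest limma adjusted p = 0.523, 0% of all features, and none of the 32 at an unadjusted p under 0.05), with differences of -0.44 to 0.42.

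The genes shared their high and low arrays within groups. Intravenous cisplatin replicate 2 was the highest of the 12 arrays in 29 of the 32 genes and the highest of its own 3 in 31. The median over genes, relative to the water mean of the experiment, was 1.21, 2.49 and 1.69 on the intravenous cisplatin arrays and 1.81, 1.67 and 1.82 on the gavage cisplatin arrays. Without intravenous cisplatin replicate 2 the intravenous median change was 1.48, 27 genes rose and Cdc25b fell. Water animals differed as well: replicate 1 lay above the mean of its group in 30 genes with gavage water and in 31 with intravenous water, with medians of 0.27 and 0.31. The median SD of the 32 genes over 3 arrays was 0.30 in each water group, 0.11 with gavage cisplatin and 0.64 with intravenous cisplatin. Over all features it was 0.13 in each water group, 0.18 and 0.19. Because the fit shares 1 spread per gene over the 4 groups, its SEs and intervals for these genes can understate the uncertainty of the intravenous changes. They can overstate that of the gavage changes, and the limma p-values rest on the same shared spread.

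Marker genes of several cell types moved with cisplatin too. Counts are given for gavage first. Of all features 29.8% and 32% passed as lower and 29.5% and 26.4% as higher. With few markers per type, counts near those shares, such as the intravenous endothelial one, say little about that cell type. Of proximal tubule markers 7 and 6 of 7 fell, of thick limb and distal tubule markers 5 and 5 of 5, of collecting duct markers 2 and 3 of 4, of podocyte markers 3 and 3 of 4 and of endothelial markers 3 and 2 of 5. Of 7 injured tubule markers 6 and 7 rose, and their summed level went from 18.1 to 20.5 with gavage water to 199.6 to 240 with gavage cisplatin, and from 17.1 to 18.6 with intravenous water to 122 to 233. Of 7 macrophage markers 6 and 5 rose (summed 3.75 to 4.15 against 10.8 to 17.9, and 3.79 to 5.96 against 10.6 to 14.5). Of 7 tested fibroblast markers 7 and 6 rose (30.2 to 40.7 against 112 to 157, and 27.8 to 38.5 against 78.0 to 136). Of 8 tested lymphocyte markers 1 (Ptprc) and 4 (Ptprc, Cd3e, Cd3g and Cd8a) rose. The lymphocyte sum was 2.47 to 3.50 and 3.32 to 3.76 with gavage water and cisplatin, 2.22 to 2.83 with intravenous water, and 3.24, 6.94 and 6.75 on intravenous cisplatin replicates 1, 2 and 3. Of 6 tested erythroid markers 5 fell and 1 rose (Epor) in each experiment, and none of the 12 arrays had Gata1 well above background. With spike-in scaling no podocyte marker fell in either experiment (none and 1 rose), 1 endothelial marker fell and 2 rose in each, and erythroid falls were 5 and 3. Collecting duct falls were then 2 and 1 and lymphocyte rises 4 and 6. Their part in the rise of the mitosis genes was not tested.

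Other genes of the same pathways were taken from lists, which were chosen with earlier results of these data known. Beside every list count below stand the shares of all features, 29.5% higher and 29.8% lower with gavage and 26.4% and 32% with intravenous cisplatin. Of 57 tested further mitosis genes, 43 rose and 3 fell with gavage (median 1.82), and 46 rose and 2 fell with intravenous cisplatin (median 1.79). With normexp background correction 38 rose with gavage (median 0.96) and 43 with intravenous cisplatin (median 0.86). Gtse1, a microtubule-binding protein of G2 and S phase, was not well above background on any gavage water array and rose by at least 31.3-fold with gavage (limma adjusted p = 9.78e-07). Like that of Aurkb, this bound and those of Cdt1 and Rbl1 below were taken from the processed signals as deposited and hold only for them. With intravenous cisplatin it rose by 4.70 ± 0.32 (limma adjusted p = 3.78e-06), with 1 of 3 water arrays above background. Ckap2, a spindle microtubule protein, rose by 3.67 ± 0.32 and 3.75 ± 0.32, and the kinetochore genes Dsn1 by 2.55 ± 0.24 and 2.42 ± 0.24 and Cenpu by 2.83 ± 0.26 and 2.36 ± 0.26. Iqgap3, a scaffold of the IQGAP family, rose by 2.99 ± 0.28 and 2.85 ± 0.28. The falls, named after their values were seen, were Kifc1, a kinesin that draws spindle poles together (-1.90 ± 0.31 and -1.62 ± 0.31), in both experiments, Incenp (-1.08 ± 0.40) and Ncaph2 (-0.38 ± 0.11) with gavage and Ccnf (-0.68 ± 0.24) with intravenous cisplatin.

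Of 23 tested DNA replication genes, 20 rose and 1 fell with gavage (median 1.62), and 21 rose and 1 fell with intravenous cisplatin (median 1.51). The licensing factor Cdt1 rose by 2.75 ± 0.21 with gavage, where 1 of 3 water arrays was above background, and by at least 6.61-fold with intravenous cisplatin, where none was (limma adjusted p = 3.72e-06). Its inhibitor Gmnn (geminin) rose by 2.24 ± 0.17 and 1.91 ± 0.17. Chaf1b, a chromatin assembly factor, rose by 2.69 ± 0.18 and 2.45 ± 0.18, the thymidylate synthase Tyms by 1.62 ± 0.12 and 2.01 ± 0.12, and the helicase subunit Mcm2 by 1.36 ± 0.10 and 1.34 ± 0.10.

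The G2 checkpoint list was mixed, with 6 of 11 higher and 1 lower in each experiment (medians 0.76 and 1.05). Btg2, an antiproliferative p53 target, rose by 3.44 ± 0.14 and 3.06 ± 0.14, and the RNA-binding p53 target Zmat3 by 1.85 ± 0.12 and 1.49 ± 0.12. Pkmyt1, a kinase that inhibits CDK1, rose by 2.40 ± 0.17 and 2.16 ± 0.17, and the checkpoint kinase Chek1 by 2.20 ± 0.19 and 1.98 ± 0.19. The genes that fell, named after their values were seen, were Ccng2 with gavage (-0.52 ± 0.12) and the CDK inhibitor Cdkn1a with intravenous cisplatin (-0.59 ± 0.08). These are values of the brightest probe alone. With spike-in scaling no gene of this list passed as lower in either experiment, so neither fall holds there.

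Regulators of mitotic transcription gave 5 higher and 3 lower of 13 with gavage (median 0.0012), and 7 higher and 3 lower with intravenous cisplatin (median 0.42). The gavage counts lie near the shares of all features (29.5% higher and 29.8% lower), so as a list they show no shift there. Mybl2, which encodes B-Myb, rose by 3.02 ± 0.29 (limma adjusted p = 1.53e-05) and 2.98 ± 0.29 (limma adjusted p = 2.82e-05). Tfdp1, the partner of E2F factors, rose by 1.19 ± 0.11 and 1.07 ± 0.11, and E2f1 by 1.57 ± 0.25 and 0.92 ± 0.25. Rbl1, which encodes the pocket protein p107, rose by 1.09 ± 0.28 with gavage and by at least 2.39-fold with intravenous cisplatin, where no water array was well above background. Of the subunits of NF-Y, Nfyc fell (-0.70 ± 0.10 and -0.49 ± 0.10), and Nfyb rose with intravenous cisplatin (0.42 ± 0.07) and was at -0.09 ± 0.07 with gavage, which did not pass. The other falls, named after their values were seen, were Rbl2 (-0.33 ± 0.10 and -0.37 ± 0.10), Lin37 with gavage (-0.22 ± 0.08) and E2f7 with intravenous cisplatin (-0.58 ± 0.18).

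Of 13 subunits and activators of the anaphase-promoting complex 7 rose and 1 fell with gavage, and 6 rose and none fell with intravenous cisplatin (medians 0.25 and 0.21). Anapc1 rose by 1.02 ± 0.21 and 0.71 ± 0.21, Anapc10 by 0.59 ± 0.09 and 0.52 ± 0.09 and Anapc2 by 0.25 ± 0.09 and 0.41 ± 0.09. Cdc16 rose with gavage (0.53 ± 0.14), Cdc27 and the activator Fzr1 with intravenous cisplatin (0.47 ± 0.12 and 0.47 ± 0.11), and Anapc13 fell with gavage (-0.40 ± 0.09). Of 8 cohesin genes 1 rose and 1 fell with gavage, and 2 rose and 2 fell with intravenous cisplatin (medians -0.01 and 0.09). The shares of all features were 29.5% and 29.8% with gavage and 26.4% and 32% with intravenous cisplatin. The intravenous counts lie near those shares, and with only 8 genes neither pair of counts says much about cohesin. The loader Mau2 rose in both (0.61 ± 0.13 and 0.37 ± 0.13), Stag2 fell in both (-0.36 ± 0.08 and -0.29 ± 0.08), Smc3 rose with intravenous cisplatin (0.30 ± 0.08) and Rad21, the subunit that separase cuts, fell there (-0.34 ± 0.12). The gavage values of Rad21 and Stag1, -0.20 ± 0.12 and -0.12 ± 0.08, did not pass.

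Scaling by spike-in probes in place of the 75th percentile moved the median of all features to 0.67 with gavage and 0.49 with intravenous cisplatin, so changes above are relative to the other genes of an array. With that scaling 30 of the 32 mitosis genes rose in each experiment and none fell. Of the 10 falls in the other lists with gavage 2 still passed, Kifc1 (-1.24) among them, and of the 9 with intravenous cisplatin only that of Kifc1 (-1.07), while the cohesin medians were 0.65 in both.

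**Figure D5:**
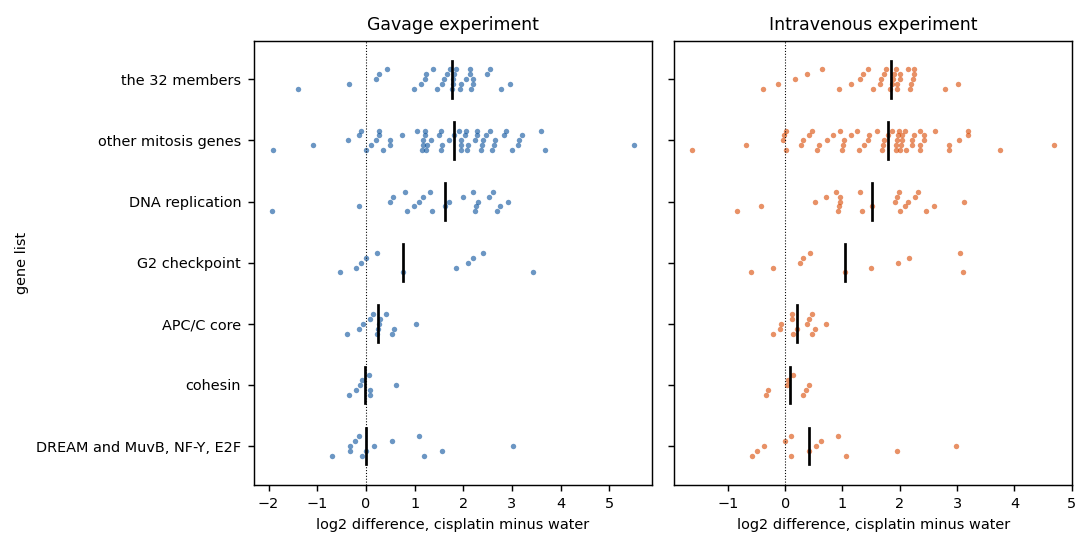
Log2 difference of cisplatin minus water for each tested gene of the mitosis set and of 6 related lists, with gavage left and intravenous right, points for genes and bars for list medians. The mitosis and DNA replication lists lie mostly right of 0, while the cohesin and anaphase-promoting complex lists lie close to it.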

How the data were processed

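Total RNA of 12 renal cortex samples was measured on 1-colour Agilent arrays, and per the submitters' processing notes spots were read with Agilent Feature Extraction 10.7 (the headers name 10.7.1.1). The deposited processed intensity is background-subtracted and not scaled between arrays, per the file headers. A value table that the authors deposited holds a ratio of that intensity to the 75th percentile of its array and served as an alternative. Log2 processed intensity minus each array's 75th percentile was used here, without 1439 control spots and 82 single uneven spots. Of 61537 probes 28206 matched a symbol by accession and 33331 none. Testing was limited to features called well above background by every array of at least 1 group, which left 34444 of 48976.

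A model with a mean for each of the 4 groups was fitted by limma 3.58.1 (R 4.3.3) across the 12 arrays, with 8 residual degrees of freedom. Its two-sided p-values were adjusted by Benjamini-Hochberg over every feature tested, and further probes of a gene were fitted with all probes that passed the same filter. On data simulated for the gavage comparison with 34402 features, 54% of changes of 1 and 88% of changes of 2 on the log2 scale were recovered. Calls on unchanged features numbered 11. Only 50 features were changed at each size, while 59.3% passed in the real comparison, so these shares do not give its power. Levels on all arrays are given for the 2 genes of each role with the smallest p in each comparison, and for genes that fell, were called in the difference of effects or had probes called in opposite directions, and also for Cdc20, chosen after its values were seen. Of each other list, up to 4 genes with the smallest p are named per comparison. The genes and lists were chosen with earlier results of these data known. The values of 1 gene of the DNA replication list are not reported here. Alternatives were normexp with an offset of 50, quantile and spike-in scaling (7 probes), the deposited ratios, other filters, the mean of probes, uneven spots kept, 1 experiment alone, the slide or the replicate number as a block, and leaving out each array. On slide 1, replicate 1 of gavage cisplatin was together with its 3 water arrays. Intravenous water shared slide 2 with replicates 2 and 3 of gavage cisplatin, and slide 3 had intravenous cisplatin alone.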

Additional observations from a re-analysis of the deposited data

Results flagged for a closer look

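Nfyb, which encodes a subunit of the factor NF-Y, had a cisplatin effect that differed between the experiments, the one such call among the mitosis genes and the other pathway lists. Among marker genes, 2 of 6 erythroid markers passed as well. The difference of effects for Nfyb, intravenous minus gavage, was 0.51 ± 0.10 (limma adjusted p = 0.0494), from -0.09 with gavage and 0.42 with intravenous cisplatin. The call held in 7 of 22 other settings, with adjusted p of 0.0231 to 0.901 by limma over all 22. It was lost with spike-in scaling, quantile normalization, no filter on dim probes, the replicate block and in 10 of 12 fits leaving out 1 array, and the exceptions were gavage cisplatin replicate 1 and intravenous cisplatin replicate 1. For the mean of its probes the difference was -0.04. Route, dose, experiment and slide cannot be told apart in it.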

How the results depend on the processing

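The counts of mitosis genes that rose were 25 to 30 with gavage and 26 to 30 with intravenous cisplatin over all settings. The count that fell with gavage (1, Kif11) was 2 with normexp and 0 with spike-in scaling or the slide as a fixed block, and 0 to 1 leaving out 1 array. The count that fell with intravenous cisplatin (0) was 0 to 1 leaving out 1 array, and so was that of higher differences of effects. The gavage median (1.77) was 1.32 with normexp, 2.43 with spike-in scaling and 1.63 to 1.91 leaving out 1 array. For the intravenous median (1.85) these values were 1.41, 2.40 and 1.48 to 2.15. The intravenous value of Kif11 (-0.13) turned to 0.026 with normexp, 0.43 with spike-in scaling, and 0.21 for the mean of its probes, and was -0.40 to 0.37 leaving out 1 array (0.37 without intravenous cisplatin replicate 1). Falls in the other lists numbered 2 with gavage (10 before) and 1 with intravenous cisplatin (9 before) with spike-in scaling, and 4 with the latter for the mean of probes. The share of windows with TTTGAA or TTCGAA was 55.6% before the start site alone. The cause of these shifts was not tested. With the replicate number as a block, 27 genes rose in each experiment. Correlations of deviations lay between -0.11 and 0.12 over all pairs of a water and a cisplatin array of an experiment, so they show no pairing by number. Whether the design paired the animals cannot be read from them. Slide 1 alone informs the gavage effect once slides are a fixed block, and the intravenous effect could not be fitted that way. The 3 arrays per group and dim probes limit what can be seen.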
